A study of Mus musculus with 20 samples.

Results

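The genes of the 5 mouse YTH domain proteins, Ythdf1, Ythdf2, Ythdf3, Ythdc1 and Ythdc2, were followed through maps of N6-methyladenosine (m6A) in the mRNA of developing male germ cells. Every listed peak whose deposited gene symbol was one of these names was taken, which gave 66 of 84778 peaks. The 5 genes are among 11976 genes with a peak in any stage. The maps came from wild-type C57BL/6 mice and cover 5 stages: spermatogonia that were undifferentiated or of type A1, spermatocytes at preleptotene or at pachytene/diplotene, and round spermatids. Each stage had 2 libraries of RNA precipitated with an antibody against m6A and 2 input libraries, 20 in all. Messenger RNA had been selected by its poly(A) tail and broken to about 100 nt before the precipitation, per the labels. The age of the mice and the way each cell type was isolated are not given for these libraries in the sources used here. Nothing in the labels ties the replicates to different animals, and a p-value therefore reflects only how far these libraries spread, possibly for technical reasons.

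m6A is placed on mRNA by a methyltransferase built around Mettl3 and Mettl14, can be removed by the demethylases Fto and Alkbh5, and is bound by reader proteins, of which the YTH domain family is the best known. The Ythdf proteins read m6A in the cytoplasm and act on translation and decay of the bound mRNA, Ythdc1 reads it in the nucleus, where it acts on splicing and export, and Ythdc2 is an RNA helicase that works in germ cells. In mice, loss of Ythdc2 or of its partner Meioc stops male germ cells soon after they enter meiosis, and Ythdc1 is needed for spermatogonia to develop. The measurements below concern m6A on the readers' own transcripts, not the transcripts that the readers bind.

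A value is a deposited log2 enrichment of immunoprecipitate over input at 1 peak, 1 for each replicate. The 5 stage tables state no common normalization, and those of type A1 and round spermatids run lower. Along the series, from undifferentiated spermatogonia to round spermatids, the median over all peaks was 3.01, 1.76, 2.92, 2.87 and 1.67. Levels are therefore read within a table, as the distance from its median or as a percentile. Libraries held 9622068 to 22402907 mapped reads. Between 92.8% and 97.6% of reads mapped outside type A1, against 68.3% and 73.2% in the type A1 inputs and 85.5% and 87.5% in the type A1 immunoprecipitates. Listed genes followed the stage labels in part: 9, 7, 2, 1 and 0 of 10 markers of undifferentiated spermatogonia had a peak along the 5 stages, and 0, 0, 0, 4 and 4 of 9 markers of round spermatids, with Prm2, Tnp1, Tnp2 and Tssk2 listed in no stage. Markers of the stages between separated them less. Those of type A1 or differentiating spermatogonia numbered 5, 6, 6, 1 and 1 of 7. For preleptotene the counts were 6, 6, 7, 4 and 4 of 8, and for pachytene/diplotene 6, 2, 4, 8 and 7 of 8. Markers of somatic testis cells stood mostly in the undifferentiated table, where 7 of 8 Sertoli, 3 of 6 Leydig, 5 of 6 peritubular and stromal, 2 of 4 endothelial and 4 of 6 macrophage and blood markers had a peak. At each later stage 0 to 2 markers of every such list had a peak, and Sox9, Wt1, Cdh5 and Csf1r had none. The part of such cells in the undifferentiated values below was not tested, and in bulk RNA fewer cells of a type and less RNA per cell cannot be told apart.

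The m6A peaks of the YTH genes were most numerous in preleptotene and fewest in round spermatids. The undifferentiated table held 13 of them on 4 of the genes, type A1 16 on all 5, preleptotene 18 on all 5, pachytene/diplotene 13 on all 5, and round spermatids 6 on 3. Over all genes the tables held 23031, 16392, 18749, 15656 and 10950 peaks, and the share of the 11976 genes that had a peak was 75.9%, 61.1%, 62.4%, 56.1% and 46.9%. Ythdf2, Ythdf3 and Ythdc1 had a peak in every stage, as 24.2% of the 11976 genes did. Ythdf1 lacked a peak in round spermatids alone, and Ythdc2 lacked one in both undifferentiated spermatogonia and round spermatids. A stage has a single list, so a listed or missing peak has no replicate test. Transcript levels were not analysed here, and a missing peak is no proof that m6A was lacking. The lowest listed mean enrichment differed between tables (1.48, 0.71, 1.42, 1.55 and 0.61 along the stages), so weak peaks could enter the type A1 and round spermatid tables more easily. With the same minimum of 1.55 in every table, type A1 kept 10 of its 16 YTH peaks and round spermatids 5 of 6, and no peak of Ythdc2 remained in type A1. The type A1 peak of Ythdf1 at 1415 to 1701, with a mean of 1.55, was higher than 37.8% of all type A1 peaks. The minimum thus removes many type A1 peaks of any gene, and the loss is not read as a trait of the YTH genes. The share of all round spermatid peaks that it keeps is not given here.

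**Figure D1:**
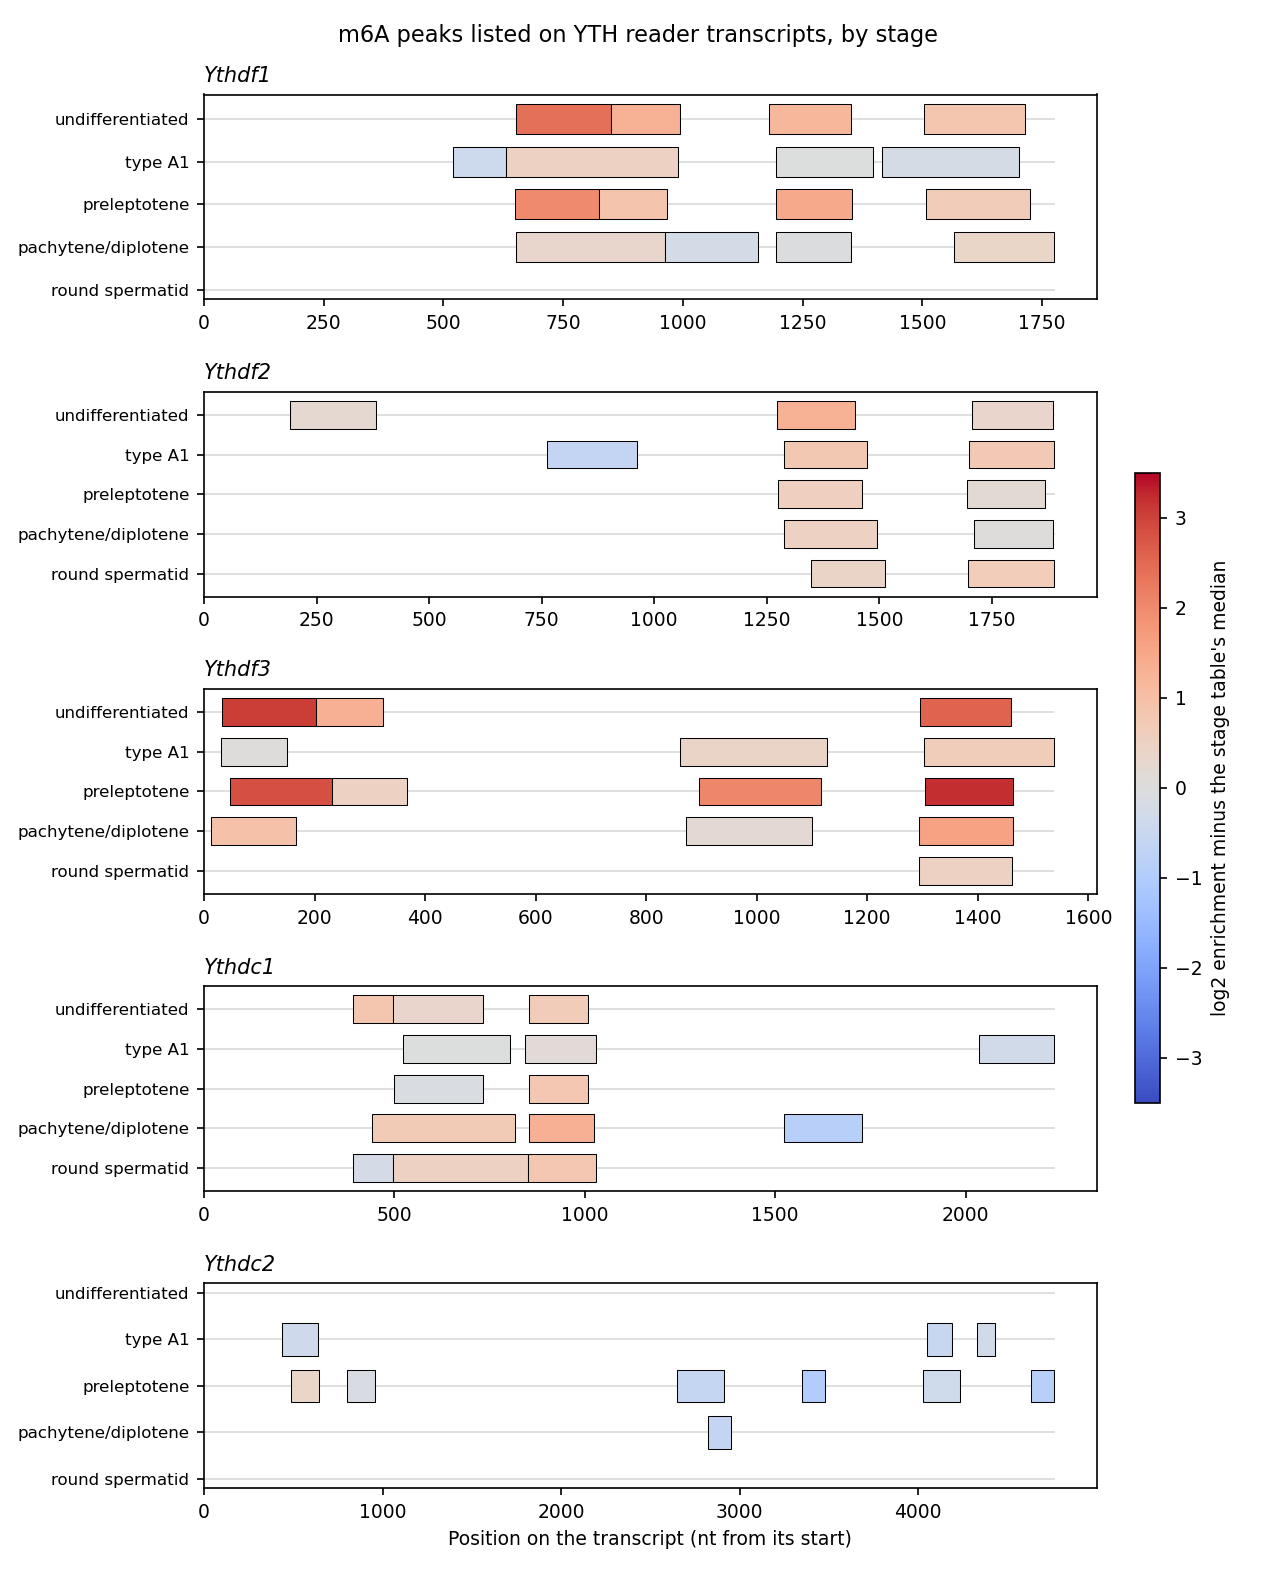
Each box is a listed peak, placed by its start and end on the transcript (nt from the transcript's start, x axis) in the row of its stage, and coloured by its mean log2 enrichment over 2 replicates minus the median of that stage's table. The grey line ends at the last nt that any peak of the gene covers. Most boxes of Ythdf1, Ythdf2, Ythdf3 and Ythdc1 line up between stages, while the 10 boxes of Ythdc2 are scattered over 7 places and are mostly below the table median.

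Most peaks of the Ythdf genes and Ythdc1 lay at the same places in successive stages. Joining peaks that shared at least 1 nt gave 21 places on the 5 transcripts. Of these, 4 were covered in all 5 stages: positions 1272 to 1511 and 1695 to 1887 of Ythdf2, 1293 to 1537 of Ythdf3, and 390 to 1029 of Ythdc1. Another 4 were covered in 4 stages, 3 of them on Ythdf1 (630 to 1155, 1180 to 1396 and 1415 to 1774) and 1 on Ythdf3 (12 to 366). The Ythdc1 place is a long stretch joined from 12 peaks. Its parts near 500 to 731 and 853 to 1007 are linked only where peaks at 496 to 850 and 843 to 1029 overlap. The counts of places therefore depend on the 1 nt rule. At the other extreme, 9 places were covered in 1 stage only: 4 on Ythdc2, 2 each on Ythdf2 and Ythdc1, and 1 on Ythdf1. Places on other genes were not counted, so these numbers have no background share. Peak borders are those of the authors' lists, where 17 of the 66 peaks directly abutted a neighbour on the same transcript in the same stage.

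Most YTH peaks lay in coding sequence. The deposited location was coding sequence for 57 of 66 peaks (86.4%), against 58.3% of all 84778 peaks. The 66 peaks are repeated listings of 21 places and so are not independent sites. On Ythdf3 the coding share was 57.1%, close to that of all peaks. Only Ythdc2 had peaks at a stop codon (4331 to 4430, type A1) or in a 3′ UTR (4631 to 4760, preleptotene), a pair of locations that held 22.2% of all peaks. The 4 peaks in a 5′ UTR were all on Ythdf3. Start codon peaks were listed on Ythdf2 (190 to 381) and Ythdf3 (202 to 323), both in undifferentiated spermatogonia. One preleptotene peak of Ythdf3 (232 to 366) had a blank location. The preleptotene table labels no start or stop codon and leaves 22.0% of its locations blank, so shares by location are not compared between stages. Peaks of the YTH genes were 100 to 377 nt long.

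Ythdf1, whose protein raises translation of m6A-bearing mRNA in cultured human cells, lies on chromosome 2 (180904377 to 180920936, mm10). It had 4 peaks in each of the first 4 stages, all in coding sequence. Its strongest peak stood at 652 to 848 in undifferentiated spermatogonia, with log2 enrichments of 5.46 and 5.37 in replicates 1 and 2. Among type A1 peaks the strongest was 630 to 988 with 2.17 and 2.34, and in preleptotene 650 to 824 with 5.19 and 4.67. These 3 peaks overlap one another. Among the strongest peaks of all listed genes, that of Ythdf1 was at percentile 92.4, 61.0, 89.4 and 50.4 in the first 4 stages, so it stood high in the undifferentiated and preleptotene tables and near the middle of the pachytene/diplotene one. In pachytene/diplotene it was 1567 to 1774, and its replicates stood apart, at 4.07 and 2.41. By replicate 1 alone its percentile there was 68.8, and by replicate 2 alone it was 25.0.

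Ythdf2, whose protein recruits the CCR4-NOT deadenylase and so hastens decay of m6A-bearing mRNA, lies on chromosome 4 (132184916 to 132212256). The peak at 1272 to 1511 read 4.10 and 4.53 in undifferentiated spermatogonia, 2.55 and 2.49 in type A1, 3.50 and 3.49 in preleptotene, 3.50 and 3.19 in pachytene/diplotene, and 2.33 and 1.82 in round spermatids. The peak at 1695 to 1887 read 3.31 and 3.41, 2.52 and 2.49, 3.04 and 3.16, 3.24 and 2.60, and 2.59 and 2.00 in the same 5 stages. All 10 of these peaks had a mean above the median of their table. The strongest Ythdf2 peak was at percentile 75.9, 73.8, 54.9, 54.5 and 71.7 of genes along the stages. Ythdf2 also had a start codon peak in undifferentiated spermatogonia alone (190 to 381, 3.03 and 3.47) and a weak coding peak in type A1 alone (761 to 960, 1.03 and 1.23), which was higher than 10.1% of type A1 peaks.

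Ythdf3, whose protein acts together with the other two Ythdf readers on translation and decay, lies on chromosome 3 (16183148 to 16217037). It carried the most enriched peaks of the family in undifferentiated spermatogonia and preleptotene. Its 5′ UTR peak (32 to 201) read 6.26 and 5.87 in undifferentiated spermatogonia, and in preleptotene (47 to 231) 6.50 and 5.02. In type A1 the peak there (31 to 150) read 1.63 and 1.97, close to that table's median of 1.76, and in pachytene/diplotene (12 to 166) it read 4.27 and 3.33. No 5′ UTR peak of Ythdf3 was listed in round spermatids. The coding peak at 1293 to 1537 was listed in all stages, with 5.53 and 5.64, 2.35 and 2.39, 5.80 and 6.49, 4.76 and 4.19, and 2.20 and 2.08 along the series. In preleptotene it exceeded 99.2% of all listed peaks. A second coding peak, between 862 and 1126, was listed in type A1 (2.21 and 2.09), preleptotene (4.87 and 5.13) and pachytene/diplotene (3.65 and 2.52). The strongest Ythdf3 peak was at percentile 96.7, 66.7, 98.1, 85.3 and 64.8 of genes along the stages.

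**Figure D2:**
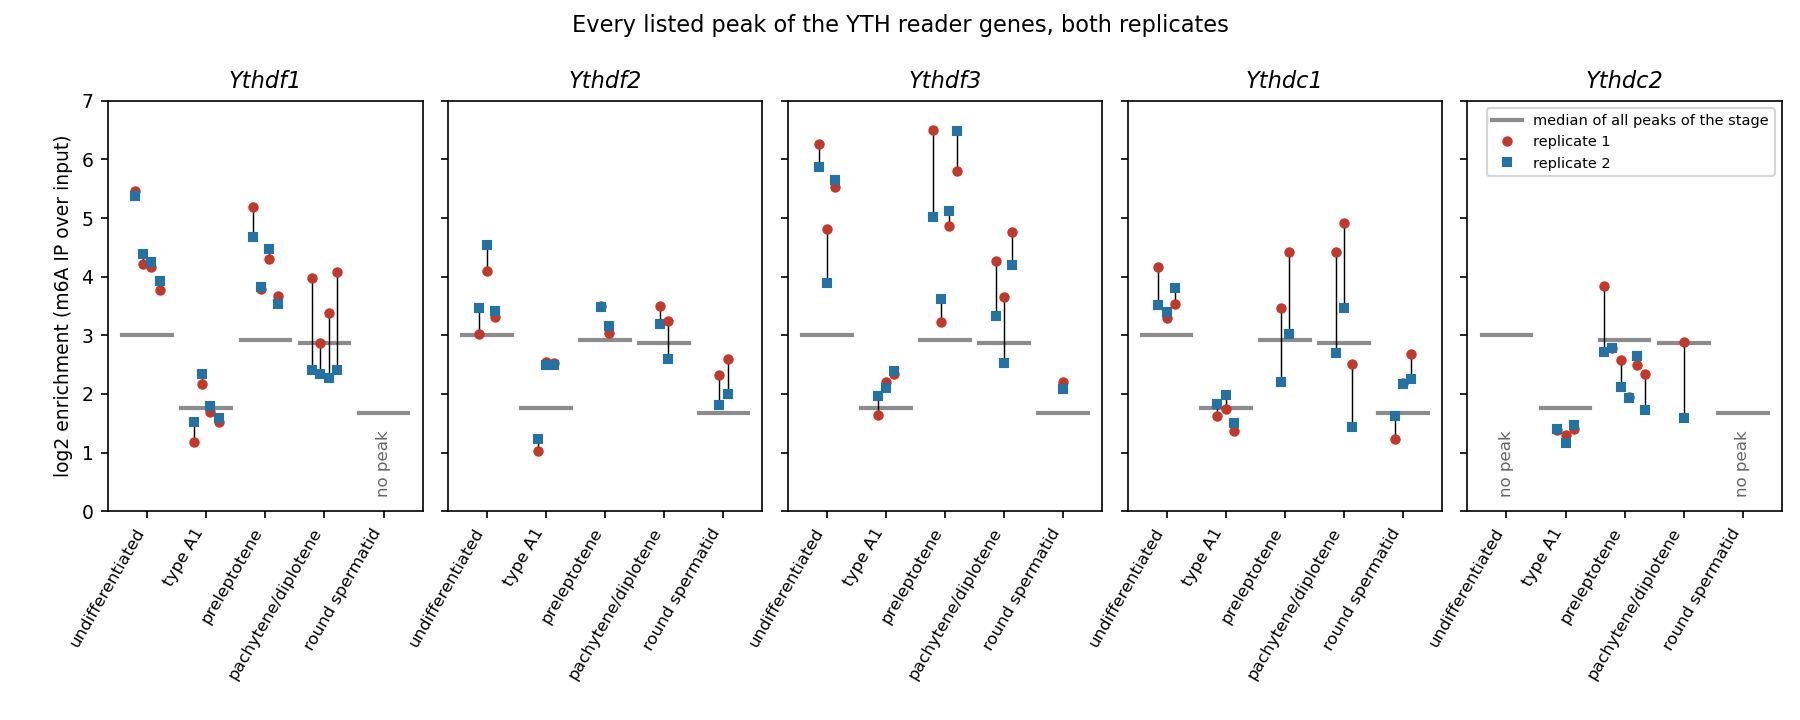
Deposited log2 enrichment (y axis) of all 66 YTH peaks by stage (x axis), with replicate 1 as circles and replicate 2 as squares, joined by a line for each peak. Peaks of a stage run left to right by position, and the grey bar is the median of all peaks of that stage. Ythdf3 reaches 6.50 in preleptotene, and in pachytene/diplotene replicate 1 stands above replicate 2 at all 13 peaks. The medians over all pachytene/diplotene peaks differ the same way, at 3.13 in replicate 1 and 2.64 in replicate 2.

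Ythdc1, the nuclear reader that brings splicing factors such as Srsf3 to m6A sites in human cells, lies on chromosome 5 (86803980 to 86836659). All 14 of its peaks were in coding sequence, and 12 lay in the stretch from 390 to 1029. The peak near 853 to 1007 read 3.53 and 3.81 in undifferentiated spermatogonia, 1.74 and 1.99 in type A1, 4.43 and 3.03 in preleptotene, 4.92 and 3.46 in pachytene/diplotene, and 2.68 and 2.25 in round spermatids. It lay above its table's median on average in every stage. Its strongest peak stood at percentile 62.3, 39.8, 62.8, 79.4 and 77.6 of genes along the stages, highest in the 2 late ones. These ranks rest on replicates that stood apart: in preleptotene the percentile was 80.3 by replicate 1 alone and 36.3 by replicate 2 alone, and in pachytene/diplotene 87.7 and 66.4. Beyond the difference of the column medians, replicate 1 exceeded replicate 2 by 1.28 and 1.42 at the preleptotene peaks of Ythdc1, where the median gap over the table was 0.34 in size. A gap of 1.28 was wider than that of 97.7% of preleptotene peaks. After the same correction replicate 1 was the higher one at 13 of 13 YTH peaks in undifferentiated spermatogonia (median gap 0.36), 3 of 16 in type A1, 11 of 18 in preleptotene, 12 of 13 in pachytene/diplotene (median gap 0.61) and 4 of 6 in round spermatids. Ythdc1 had a weak peak in type A1 alone (2034 to 2231, 1.37 and 1.50) and another in pachytene/diplotene alone (1524 to 1726, 2.51 and 1.44).

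Ythdc2, the helicase needed for progress through meiotic prophase, lies on chromosome 18 (44827730 to 44889720). Its peaks appeared only in the 3 middle tables: 3 in type A1, 6 in preleptotene and 1 in pachytene/diplotene. The strongest was the coding peak at 487 to 641 in preleptotene, with 3.84 and 2.72, and it was the only peak of Ythdc2 above the median of its table. The other 5 preleptotene peaks had means between 1.94 and 2.79. In type A1 the 3 peaks had means of 1.39, 1.23 and 1.44, higher than 27.2%, 16.7% and 30.4% of all type A1 peaks. These means are under the lowest values listed in undifferentiated spermatogonia (1.48) and pachytene/diplotene (1.55). Type A1 values run lower as a whole, so this does not show that the peaks would be missing from those tables. The pachytene/diplotene peak (2821 to 2950) read 2.89 and 1.59. The strongest Ythdc2 peak was at percentile 17.0 of genes in type A1, 46.7 in preleptotene and 7.70 in pachytene/diplotene, below that of each other YTH gene in those stages. In preleptotene the percentile was 65.5 by replicate 1 alone and 26.4 by replicate 2 alone. By replicate 1 alone it was thus above that of Ythdf2 (54.4). The lowest rank there holds for the mean and for replicate 2 alone, but not for replicate 1 alone.

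**Figure D3:**
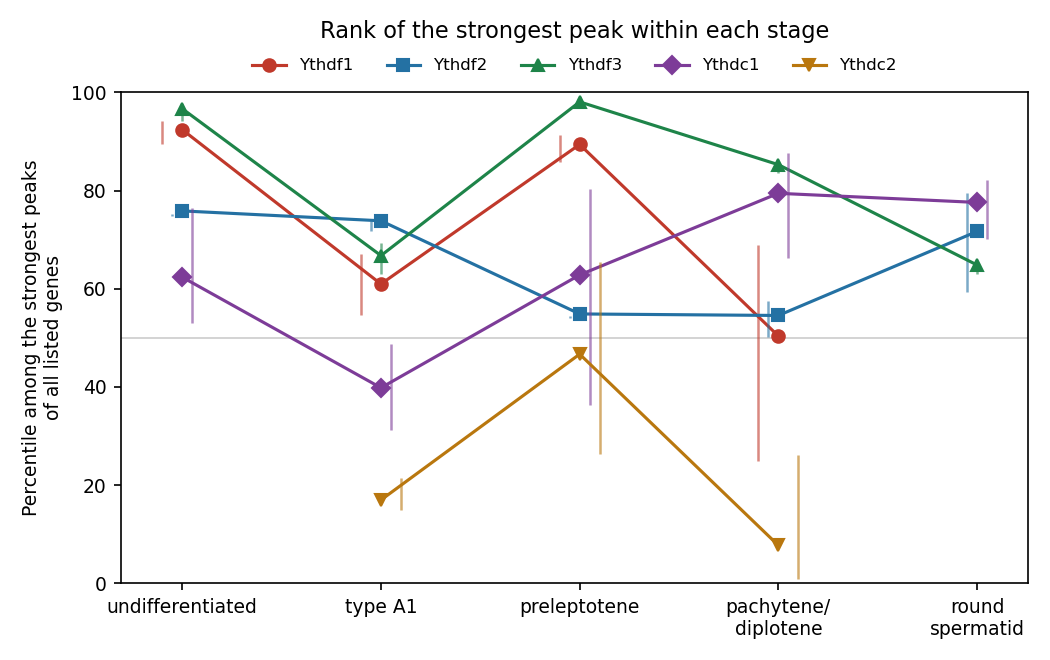
Percentile of each gene's strongest peak (mean of 2 replicates) among the strongest peaks of all genes listed in the stage (y axis), by stage (x axis). Thin vertical lines join the percentiles from replicate 1 alone and replicate 2 alone, and a gene has no point where it had no peak. Ythdf3 is at 98.1 in preleptotene and 64.8 in round spermatids, and by the mean Ythdc2 is the lowest wherever it is listed. By replicate 1 alone it is above Ythdf2 in preleptotene.

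The authors' tables also give a log2 ratio of each peak's enrichment to a second stage, which allows single peaks to be compared between stages with 2 replicates each. The value of the second stage was the deposited enrichment minus the deposited ratio. Each comparison was fitted with limma over all peaks of the table, on values centred on the median of each column, so that a difference is the later stage minus the earlier one relative to the typical peak. A peak was called at a Benjamini-Hochberg adjusted p under 0.05. Every peak tested had been listed because it was enriched in the table's own stage, which favours higher values there. This weighs most on peaks that the authors label as unique, with no overlapping peak in the second stage, and differences at those peaks are no independent test of direction. Of the YTH peaks, 3 of 13 were unique in the undifferentiated table, 4 of 16 in type A1, 7 of 18 in preleptotene, 8 of 13 in pachytene/diplotene and 0 of 6 in round spermatids. The share of unique peaks over each whole table is not given here. These counts therefore only mark which tests are affected and are not read as a trait of the YTH genes. Type A1, preleptotene and undifferentiated samples each enter more than 1 comparison, as do both late stages, so the comparisons are not independent of each other.

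At the peaks of undifferentiated spermatogonia, Ythdf3 fell in type A1 at all 3 of its peaks, and Ythdf1 and Ythdc1 fell at the first of theirs. The called peaks of Ythdf3 at 202 to 323, Ythdc1 at 390 to 495 and Ythdf2 at 190 to 381 are the 3 labelled unique to undifferentiated spermatogonia, so their being listed already favoured a lower value in type A1. The Ythdf3 5′ UTR peak (32 to 201) read 1.68 and 2.06 in type A1, against 6.26 and 5.87 in undifferentiated spermatogonia. Both type A1 values lay below both others before and after centring, and the centred log2 difference was -2.51 ± 0.33 (SE), adjusted p = 0.00217 by limma. The start codon peak of Ythdf3 (202 to 323) read 0.68 and 0.60 in type A1, against 4.81 and 3.89 in undifferentiated spermatogonia, a difference of -2.02 ± 0.41. Its coding peak (1296 to 1459) read 2.35 and 2.40, against 5.53 and 5.64, a difference of -1.52 ± 0.26. The stages did not overlap at either peak, and the limma adjusted p were 0.0108 and 0.00571.

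Ythdf1 had its first peak (652 to 848) at 2.22 and 2.51 in type A1, against 5.46 and 5.37 in undifferentiated spermatogonia, a difference of -1.36 ± 0.29. The first peak of Ythdc1 (390 to 495) read 0.39 and 0.84 in type A1, against 4.16 and 3.52, a difference of -1.54 ± 0.37. The start codon peak of Ythdf2 (190 to 381) read 0.41 and 0.44, against 3.03 and 3.47, a difference of -1.14 ± 0.25. At all 3 peaks the stages did not overlap, and limma gave adjusted p of 0.0118, 0.0198 and 0.0133. Ythdf2 rose at 1705 to 1884, with 2.53 and 2.50 in type A1 against 3.31 and 3.41 in undifferentiated spermatogonia. These values are lower in type A1 as deposited and higher only relative to the column medians (1.31 and 1.36 in type A1, 2.80 and 3.27 in undifferentiated spermatogonia). The difference was 0.85 ± 0.26 at a limma adjusted p of 0.0450, and it was -0.84 without centring.

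In all, 1 of the 13 YTH peaks was higher in type A1 and 6 were lower, where 25.1% of the 22843 peaks tested were called, 9.22% higher and 15.9% lower. The other 6 had differences between -0.73 and -0.06, among them the other 3 peaks of Ythdf1 (-0.51 to -0.73) and the shared peak of Ythdf2 at 1272 to 1445 (-0.06 ± 0.25). The median over the YTH peaks was -0.73, against -0.10 over all peaks. Without type A1 replicate 1, only the 3 Ythdf3 peaks were called, and 1798 of all peaks in place of 5741. The first peaks of Ythdf1 and Ythdc1 and the start codon peak of Ythdf2 then had limma adjusted p of 0.0840, 0.0744 and 0.108. Without type A1 replicate 2 the Ythdf2 start codon peak was not called either (limma, adjusted p = 0.0848). The higher call of Ythdf2 at 1705 to 1884 was lost without either type A1 replicate and without undifferentiated replicate 2, at limma adjusted p of 0.0654 to 0.291. Sertoli, stromal and blood cell markers are listed in the undifferentiated table and hardly in that of type A1, as given above.

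**Figure D4:**
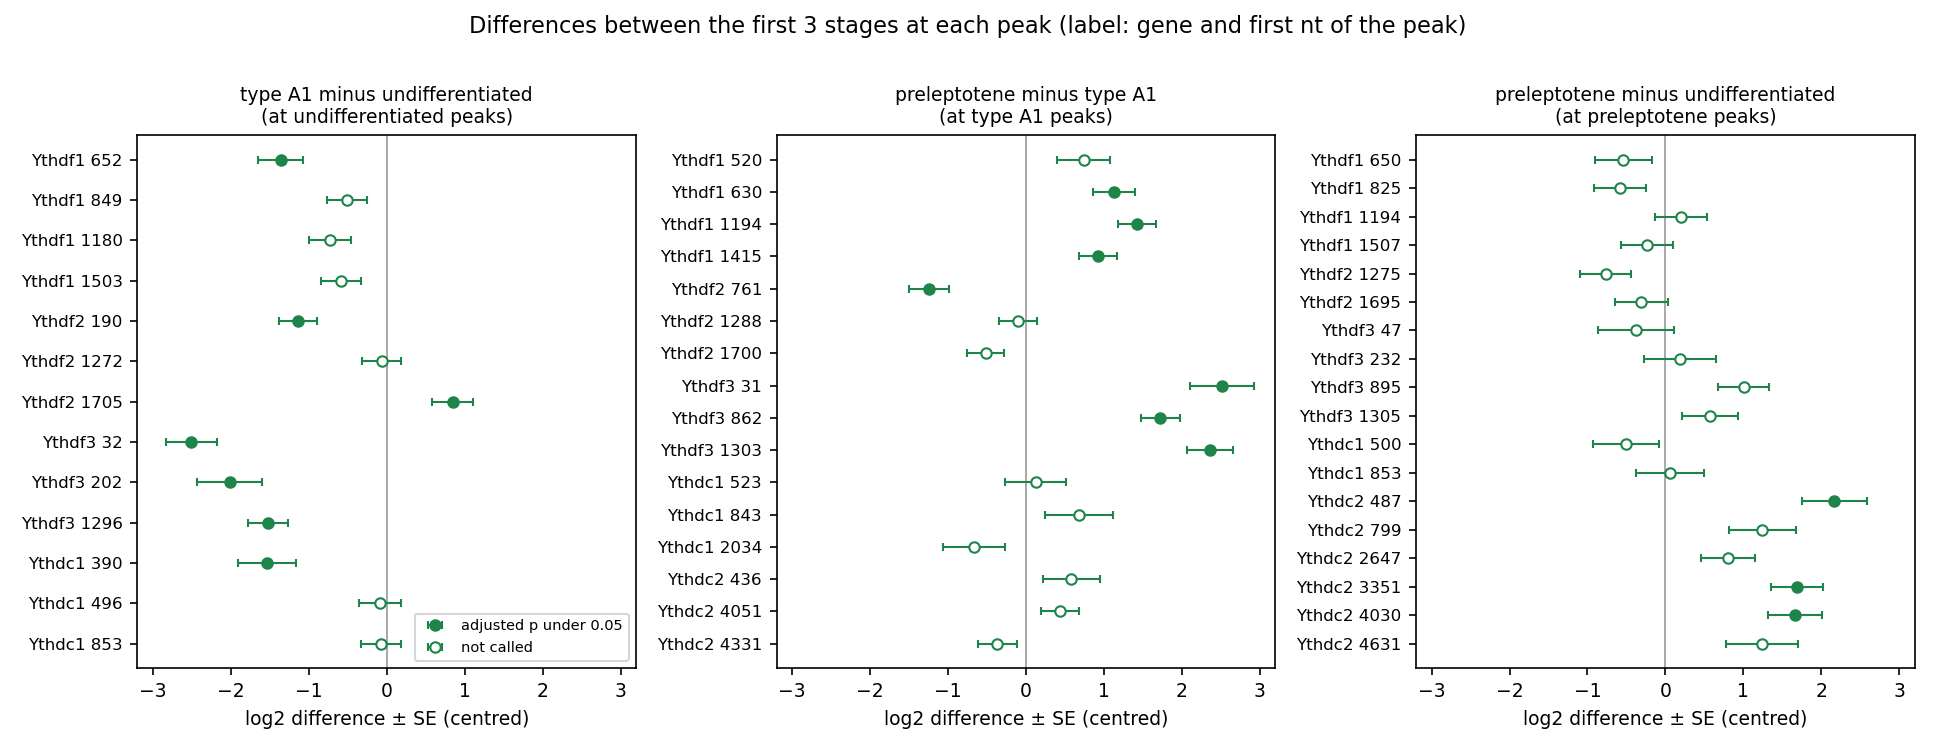
Centred log2 differences between stages (x axis) with their standard errors from limma at each YTH peak (y axis, gene and first nt of the peak), 2 replicates against 2. Filled points passed an adjusted p under 0.05 over the whole table. All 3 Ythdf3 peaks are at -1.52 or below in the left panel and all 3 lie between 1.73 and 2.51 in the middle panel, and the 3 filled points of the right panel are Ythdc2 peaks.

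At the peaks of type A1 spermatogonia, Ythdf3 and Ythdf1 rose in preleptotene spermatocytes. Ythdf3 had 5.99 and 4.75 in preleptotene at its 5′ UTR peak (31 to 150), against 1.63 and 1.97 in type A1, a difference of 2.51 ± 0.41. Its coding peaks read 4.80 and 5.08 against 2.21 and 2.09 (862 to 1126, difference 1.73 ± 0.25) and 5.42 and 6.15 against 2.35 and 2.39 (1303 to 1537, difference 2.36 ± 0.30). The stages were apart at all 3, with limma adjusted p of 0.00499, 0.00336 and 0.00219. Ythdf1 rose at 3 of its 4 peaks. At 630 to 988 it read 4.63 and 4.26 in preleptotene, against 2.17 and 2.34 in type A1 (difference 1.13 ± 0.27), and at 1194 to 1396 it read 4.15 and 4.30, against 1.69 and 1.80 (1.42 ± 0.25). At 1415 to 1701 it read 3.59 and 3.49, against 1.52 and 1.58 (0.93 ± 0.25). The stages did not overlap at these peaks, and limma gave adjusted p of 0.0188, 0.00609 and 0.0270.

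The one YTH peak that fell in preleptotene was the weak type A1 peak of Ythdf2 (761 to 960), labelled unique to type A1, with 0.81 and 1.10 in preleptotene against 1.03 and 1.23 in type A1. The deposited values of both stages overlap, and the difference of -1.24 ± 0.26 (limma, adjusted p = 0.0114) arises relative to column medians of 2.79 and 2.83 in preleptotene and 1.78 and 1.73 in type A1. Of 16 YTH peaks, 6 were thus higher and 1 lower, where 28.0% of the 16309 peaks tested were called, 13.6% higher and 14.4% lower. The remaining 9 had differences from -0.67 to 0.74, and none of the 3 peaks each of Ythdc1 and Ythdc2 passed the test. At all 3 Ythdc1 peaks preleptotene replicate 1 was well above replicate 2. At 843 to 1029, for example, they read 4.30 and 2.91, against 1.74 and 1.99 in type A1 (difference 0.68 ± 0.44). The preleptotene columns are also spread more widely than those of type A1 (SD over peaks 1.23 and 1.15 against 0.68 and 0.66). When the columns were given the same distribution (quantile normalization), the Ythdf3 calls held, the Ythdf1 peak at 630 to 988 lost its call (0.70, adjusted p = 0.0890 by limma), and so did Ythdf2 (-0.35, adjusted p = 0.391 by limma). Without type A1 replicate 1, 3 YTH peaks were called, all of Ythdf3, without type A1 replicate 2, 4, and without preleptotene replicate 2, 11. The 3 Ythdf1 calls had limma adjusted p of 0.221, 0.0967 and 0.292 without type A1 replicate 1, and that of Ythdf2 0.0918.

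Between preleptotene spermatocytes and undifferentiated spermatogonia, at preleptotene peaks, the YTH peaks that passed the test were 3 of the 6 on Ythdc2. All 6 are labelled unique to preleptotene, so their being listed already favoured higher values in that stage, and the calls are no independent evidence of a rise. Its strongest peak (487 to 641) read 3.84 and 2.72 in preleptotene, against 1.11 and 1.12 in undifferentiated spermatogonia, a difference of 2.17 ± 0.42. The peak at 3351 to 3480 read 1.94 and 1.93 in preleptotene, against -0.21 and 0.72 (difference 1.69 ± 0.34), and that at 4030 to 4232 read 2.50 and 2.65, against 0.39 and 1.44 (1.67 ± 0.34). The stages did not overlap at these 3 peaks, with limma adjusted p of 0.00963, 0.0112 and 0.0135. The other 3 Ythdc2 peaks, at 799 to 955, 2647 to 2912 and 4631 to 4760, differed by 1.24 ± 0.43, 0.80 ± 0.35 and 1.24 ± 0.46 and did not pass the test (limma, adjusted p = 0.108, 0.201 and 0.134), though at each of them both preleptotene values lay above both undifferentiated ones. Ythdc2 has no listed peak in undifferentiated spermatogonia, and the means of that stage at the 6 places ran from 0.26 to 1.55, around or below the lowest value listed there (1.48). Somatic cell markers are again listed mainly in the undifferentiated table.

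These 3 were the only calls among 18 YTH peaks, all of them higher, where 7.80% of the 18706 peaks tested were called, 5.36% higher and 2.45% lower. Without preleptotene replicate 2, 1 YTH peak was called, without preleptotene replicate 1, 2, and with quantile normalization 1. The strongest Ythdc2 peak lost its call without preleptotene replicate 1 (limma, adjusted p = 0.0618), that at 3351 to 3480 without preleptotene replicate 2 (0.0525) and that at 4030 to 4232 without preleptotene replicate 2 (0.0720) or undifferentiated replicate 1 (0.0571). With quantile normalization the difference at 3351 to 3480 was 0.68 (limma, adjusted p = 0.313) and that at 4030 to 4232 was 1.18 (limma, adjusted p = 0.0790). Leaving out low values removed all 6 Ythdc2 peaks and kept the other 12 YTH peaks, of which 0 were called by limma and 1 had an unadjusted p under 0.05. With the replicate block 5 were called, all of Ythdc2. Ythdf3 had differences from -0.38 to 1.01, the highest at its coding peak 895 to 1115, with 4.87 and 5.13 in preleptotene against 3.71 and 4.28 in undifferentiated spermatogonia (1.01 ± 0.33, limma adjusted p = 0.0897). Its 5′ UTR peak (47 to 231) read 6.50 and 5.02, against 6.33 and 5.95, a difference of -0.38 ± 0.48, and the stages overlapped. Ythdf1 had differences between -0.59 and 0.20, Ythdf2 of -0.77 and -0.31, and Ythdc1 of -0.51 and 0.06, none called.

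Between round spermatids and pachytene/diplotene spermatocytes, few YTH peaks passed the test. At pachytene/diplotene peaks 0 of the 13 passed it by limma, 4 had an unadjusted p under 0.05, and 8.78% of the 15514 peaks tested were called, 1.71% higher and 7.06% lower. After centring, both round spermatid values lay above both pachytene/diplotene values at 2 of the 13 peaks and below both at 5, and the stages overlapped at 6. Of those 5, only Ythdf3 at 1293 to 1463 has an overlapping round spermatid peak. The share of all 15514 peaks at which the stages stood apart is not given here. The counts of peaks above, below and overlapping are therefore not read as a trait of the YTH genes. Every pachytene/diplotene peak of Ythdf1 and Ythdc2, and that of Ythdf3 at 12 to 166, is labelled unique to this stage. Their being listed already favoured lower round spermatid values, so their differences are no independent evidence of a fall. The column medians were 1.25 and 1.28 in round spermatids and 3.13 and 2.64 in pachytene/diplotene. Ythdf1, which has no listed peak in round spermatids, read 0.63 and 0.83 there at 651 to 961, against 3.97 and 2.41 in pachytene/diplotene, a difference of -0.85 ± 0.37 (limma, adjusted p = 0.196). At its 4 pachytene/diplotene peaks the round spermatid means were 0.50 to 1.12, against a lowest listed mean of 0.61 in the round spermatid table. Ythdc2 at 2821 to 2950 read -0.26 and -0.07 in round spermatids, against 2.89 and 1.59, a difference of -0.80 ± 0.33 (limma, adjusted p = 0.179). At both peaks the pachytene/diplotene replicates stood further apart than the round spermatid ones. Ythdf2 at 1711 to 1884 had the highest difference, with 2.63 and 2.04 in round spermatids against 3.24 and 2.60 (1.03 ± 0.31, limma adjusted p = 0.0742), and it was called without round spermatid replicate 2, as was Ythdf3 at 12 to 166 (-1.47, limma adjusted p = 0.0333). Without pachytene/diplotene replicate 2, Ythdf1 at 651 to 961 was called.

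At round spermatid peaks, Ythdf3 was lower in round spermatids at its shared coding peak. The peak (1294 to 1461) read 2.20 and 2.08 in round spermatids, against 4.75 and 4.22 in pachytene/diplotene, and the stages did not overlap. The difference was -1.17 ± 0.25 at a limma adjusted p of 0.00859, the 1 call among 6 YTH peaks, where 27.0% of the 10810 peaks tested were called, 16.1% higher and 10.9% lower. At the nearly identical pachytene/diplotene peak (1293 to 1463), adjusted over that table, the difference was -0.75 ± 0.28 (limma, adjusted p = 0.131). Over the round spermatid peaks the pachytene/diplotene columns are spread more widely than those of round spermatids (SD 1.28 and 1.25 against 0.69 and 0.70). The call was lost without round spermatid replicate 1 or 2 (limma, adjusted p = 0.0963 and 0.0934) and with quantile normalization (-0.77, limma adjusted p = 0.0827). Neither peak of Ythdf2 was called, with differences of -0.06 ± 0.27 and 0.57 ± 0.28. The 3 peaks of Ythdc1 differed by -0.26 to -0.54, and the pachytene/diplotene replicates of Ythdc1 lay apart, as at 851 to 1028, which read 2.68 and 2.25 in round spermatids against 4.91 and 3.45 in pachytene/diplotene. Without pachytene/diplotene replicate 2 those 3 peaks were called too, which makes 4.

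**Figure D5:**
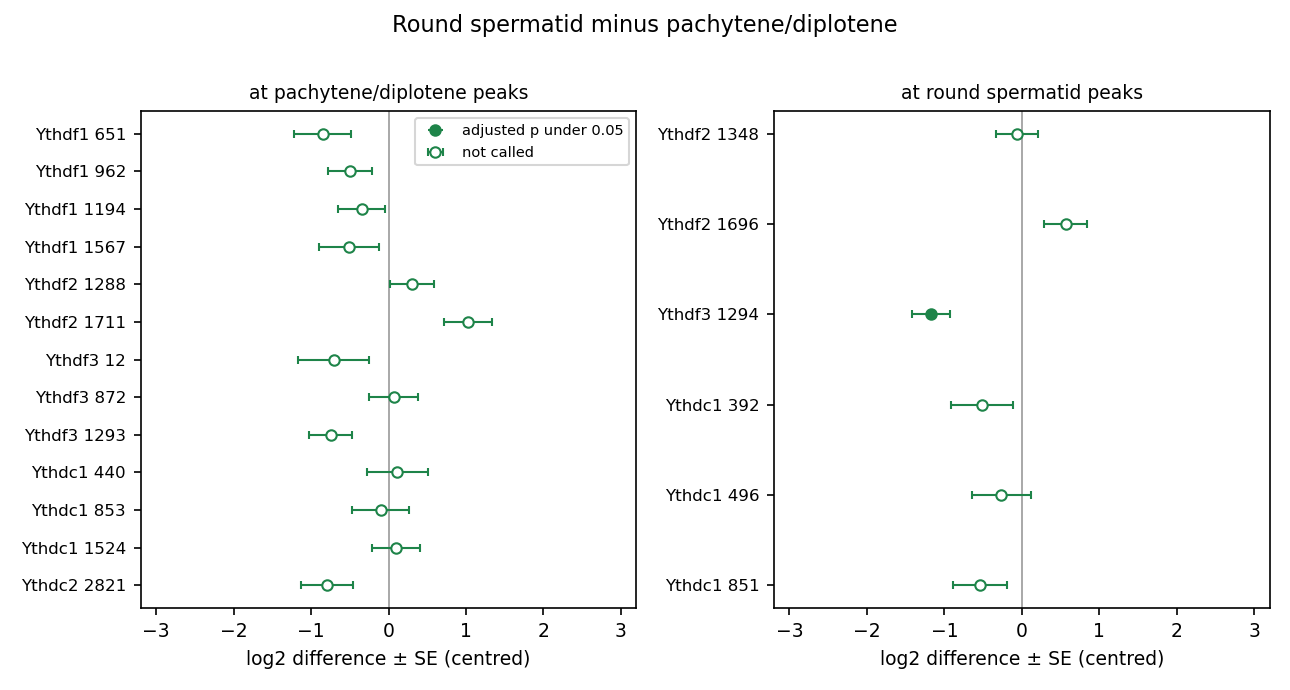
Centred log2 differences, round spermatids minus pachytene/diplotene spermatocytes (x axis), with standard errors from limma at the YTH peaks of either table (y axis, gene and first nt), 2 replicates against 2. The filled point, Ythdf3 at 1294 in the right panel, is the one that passed an adjusted p under 0.05 over its table (-1.17), and Ythdf2 has the highest value in both panels.

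Other genes of the m6A pathway were followed for comparison. Of 9 writer genes, 8, 7, 7, 7 and 3 had a peak along the 5 stages. Both eraser genes were listed in all 5, of 8 other readers 8, 7, 7, 5 and 5 were, and of 12 partners and effectors of YTH proteins 11, 11, 11, 11 and 8. Rbm15b was the only writer gene without a peak in any stage. Alkbh5, an m6A demethylase, was more enriched than any YTH gene in every stage: its strongest peak read 7.06 and 8.52 in undifferentiated spermatogonia, 3.02 and 3.12 in type A1, 7.96 and 6.90 in preleptotene, 6.51 and 6.35 in pachytene/diplotene, and 3.15 and 4.18 in round spermatids. Like Ythdf3, it was called lower in type A1 than in undifferentiated spermatogonia at 3 peaks (differences of -3.16, -2.40 and -3.16) and higher in preleptotene than in type A1 at 6 (1.40 to 3.37, with limma adjusted p from 0.00127 to 0.0101). The wider spread of the preleptotene columns, given above, bears on these strongly enriched Alkbh5 peaks too. Their differences after quantile normalization are not given here.

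In type A1 against undifferentiated spermatogonia, 2 of 24 writer peaks were higher and 2 lower, 0 and 3 of 8 eraser peaks, 3 and 10 of 27 peaks of the other readers, and 3 and 7 of 37 peaks of the partners, with median differences of -0.12, -0.42, -0.26 and -0.27 against -0.10 over all peaks. In preleptotene against type A1 the higher and lower counts for the same lists were 5 and 1 of 17, 6 and 1 of 9, 6 and 1 of 26, and 6 and 1 of 26, with medians of 0.34, 1.46, 0.20 and 0.39 against 0.01 over all peaks. Over all peaks 9.22% were higher and 15.9% lower in the first of these comparisons, and 13.6% higher and 14.4% lower in the second, so the partners' counts in the first are near those shares. In preleptotene against undifferentiated spermatogonia, 0 of 19 writer and 0 of 8 eraser peaks were called by limma (1 each at an unadjusted p under 0.05), 1 of 23 peaks of the other readers was higher and 2 lower, and 5 of 42 partner peaks were higher and 2 lower, where 5.36% of all peaks were higher and 2.45% lower. All 5 higher ones were on Meioc, the partner of Ythdc2, with differences of 1.93 to 3.25 (limma adjusted p of 0.00154 to 0.00778). Its strongest peak read 6.30 and 5.50 in preleptotene, against 2.91 and 2.58 for its strongest peak in undifferentiated spermatogonia. Meioc had 6 listed peaks in preleptotene and 1 in undifferentiated spermatogonia. Where no undifferentiated peak overlaps, being listed already favoured higher preleptotene values, so the Meioc calls are no independent evidence of a rise. In round spermatids against pachytene/diplotene, at pachytene/diplotene peaks, 0 of 15 writer peaks were called by limma (2 at an unadjusted p under 0.05), 2 of 8 eraser, 1 of 21 other reader and 3 of 38 partner peaks were lower, against 7.06% of all peaks, and none was higher. At round spermatid peaks 1 of 8, 5 of 7, 1 of 13 and 3 of 17 were lower and 1 peak, of the reader gene Igf2bp1, was higher, where 10.9% of all peaks were lower and 16.1% higher. The counts of writers, other readers and partners that were lower are near that share.

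The genes with the most similar profile were found for each YTH gene among genes with a peak in exactly the same stages, by the Euclidean distance over those stages of the strongest peak's log2 enrichment minus the median of all strongest peaks. For Ythdf1, over 4 stages and 1247 candidates, they were Mob1a (0.44), Rbfox2 (0.46) and Fam72a (0.56). For the 3 genes listed in every stage there were 2846 candidates. Ythdf2 was closest to Mbtps1 (0.06), Crebbp (0.23) and Sec16a (0.41). Ythdf3 had no such close match, with Slk (0.74), Vcpip1 (0.75) and Snrnp48 (0.81). Ythdc1 was closest to Mapk6 (0.27), Lsm14b (0.29) and Asap1 (0.31). Ythdc2, over 3 stages, had only 30 candidates, led by Agtrap (0.46), Mad2l2 (0.73) and Ube4a (0.81). Mapk6, for example, had strongest peaks of 3.90, 1.89, 3.91, 4.32 and 2.61 along the stages, and Ythdc1 3.84, 1.87, 3.73, 4.19 and 2.47.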

How the data were processed

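Read counts, raw and mapped, were deposited for every library. Each stage has a deposited peak table, where the authors give a log2 enrichment of immunoprecipitate over input for each of 2 replicates and a log2 ratio of it to a second stage, per the file headers. The submitters' processing notes name TopHat2 2.0.14 and the build mm10. How peaks were called, at which threshold and with which scaling of libraries is not given in the sources used here. Headers do not name the second stage. It was identified from the values: the deposited label for peaks shared with it matched an overlap with 1 stage at every peak of each table. Replicates 1 and 2 of the tables were taken as those of the labels.

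The 5 members, the other gene lists and the tests were chosen with earlier results of these data known. All peaks of the members are reported, and 3 genes of similar profile for each. For counts over genes, symbols were updated through the gene ID at 83876 of 84778 peaks, through the RefSeq accession at 821, and kept as deposited at 81. Gene positions come from RefSeq on GRCm38.p6 (the assembly behind mm10), and peak positions are nt on the RefSeq transcript. No genome sequence was used here, so the bases under the peaks are not shown.

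For each of 5 comparisons, stages were compared 2 against 2 with limma 3.58.1 (R 4.3.3, lmFit and eBayes, two-sided) after each column was centred on its median. A peak with any value equal to 0 was left out, and p was adjusted by Benjamini-Hochberg over the whole table. The fit had no replicate block: deviations of samples with the same replicate number correlated across peaks at -0.13, -0.14, 0.12, 0.06 and 0.02 in the 5 comparisons, with 2 pairs each. The fit was tested on simulated data, with 50 changed peaks for each size of difference. Over the 5 comparisons it recovered 0% to 6% of log2 differences of 1, 12% to 48% of 1.5 and 68% to 92% of 2. A peak with a difference near 1 that was not called is therefore no sign that the stages were alike. Fewer peaks were changed in the simulation than were called in the data, so recovery in the data may differ. Depth behind single peaks is unknown, so precision comes from the replicates alone. Each comparison was repeated under 9 alternative settings, and 2 of them also with crossed replicate numbers, an alternative chosen after seeing the data. Tables and figures were made with Python 3.11.15, pandas 2.3.3 and matplotlib 3.10.9.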

Additional observations from a re-analysis of the deposited data

How the results depend on the processing

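All 6 Ythdf3 calls in type A1 against undifferentiated spermatogonia and in preleptotene against type A1 kept their direction and an adjusted p under 0.05 by limma under all 9 alternatives. The other 12 YTH calls were lost under at least 1. In the order of the report (type A1 against undifferentiated, preleptotene against type A1, preleptotene against undifferentiated, and round spermatids against pachytene/diplotene at the peaks of each), calls among the YTH peaks numbered 7, 7, 3, 0 and 1. With the replicate block they were 6, 7, 5, 0 and 1, though the replicate numbers were not shown to pair the samples. Ythdf2 at 1705 to 1884 was the one call lost (limma, adjusted p = 0.0563). With the pairing crossed in the first 2 comparisons, chosen after seeing the data, 8 and 7 YTH peaks and 7913 and 5836 of all peaks were called. Without centring they were 13, 13, 3, 12 and 5, by construction of the alternative, as the median difference of all peaks was then -1.79, 1.07, 0.01, -1.62 and -1.23. With quantile normalization they were 7, 5, 1, 0 and 0, and with low values left out 7, 5, 0, 0 and 1. Leaving out 1 sample at a time, the lone sample being taken to vary like the other stage, gave 3 to 8, 3 to 11, 1 to 4, 0 to 2 and 0 to 4. Over all peaks the calls numbered 5741, 4565, 1460, 1362 and 2921, and with 1 sample left out 1798 to 8730, 1044 to 8343, 626 to 1411, 606 to 1393 and 924 to 3216. Without centring they were 20647, 11287, 1217, 14539 and 7997, with quantile normalization 5052, 4019, 771, 1007 and 1829, and with the replicate block 5688, 4568, 2509, 1657 and 3255. The low value filter gave 5005, 2655, 847, 1098 and 1400, from fewer peaks tested. The share of calls that were higher was 36.7%, 48.5%, 68.6%, 19.5% and 59.7% as reported, 49.4%, 48.5%, 69.3%, 30.7% and 62.3% with quantile normalization, and 0.0436%, 95.5%, 70.8%, 0.0413% and 6.75% without centring. Without centring 7 YTH differences that passed the test with or without it changed sign: Ythdf2 at 1705 to 1884 to -0.84, Ythdc2 at 4331 to 4430 to 0.69 and Ythdf2 at 1288 to 1471 to 0.96, and in round spermatids against pachytene/diplotene Ythdf2 at 1288 to 1493 to -1.31, Ythdf3 at 872 to 1099 to -1.55, Ythdc1 at 440 to 816 to -1.50 and Ythdc1 at 1524 to 1726 to -1.51. Type A1 held 10 YTH peaks in place of 16 both with the stricter minimum of 1.55 and with the 10950 strongest peaks of every table. Both alternatives also drop many type A1 peaks of other genes, so this loss is not read as a trait of the YTH genes.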
